A study of Mus musculus with 6 samples.

Results

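The tumour necrosis factor (TNF) receptor family genes described here are 8 in number: the costimulatory receptor genes Tnfrsf4, Tnfrsf9, Tnfrsf18 and Cd27, the TNF receptor genes Tnfrsf1a and Tnfrsf1b, and the ligand genes Tnfsf8 and Tnfsf11. They were chosen by gene symbol, and every probe set that the array's annotation assigns to one of these symbols alone was taken, which gave 12 of 22626 probe sets and 8 of 12393 genes. Tnfrsf9 was measured by 3 probe sets, Tnfrsf1b and Tnfsf11 by 2 each, and the other 5 genes by 1 each. Transcript levels were measured on 6 arrays of total RNA from mouse CD4+CD25+ cells separated with magnets to obtain regulatory T cells (Treg), the CD4+ lineage that restrains immune responses and depends on the transcription factor Foxp3.

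The Dnmt1 knockout group (3 arrays) came from mice of the C57BL6 strain labelled fl-DNMT1/Foxp3cre, in which a floxed gene for the maintenance DNA methyltransferase Dnmt1 is recombined by Cre where the Foxp3 locus is active. The wild type group (3 arrays) came from C57BL6 mice described only as wild type, so a Cre effect or a floxed-allele effect and the loss of Dnmt1 cannot be told apart. The sources used here give no age, sex or number of animals per sample. Samples are described as independent, but whether each came from its own animal is not said, and p-values then measure only how far these samples spread. The values analysed are log2 expression summaries made with RMA, and group errors are SD over 3 arrays.

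Receptors of the TNF family are engaged by trimeric ligands and recruit TRAF adaptor proteins, which activate NF-kB and kinase pathways. Tnfrsf1a carries a death domain, whereas Tnfrsf4, Tnfrsf9, Tnfrsf18, Cd27 and Tnfrsf1b act through TRAF proteins without one. Mouse Treg carry more of the receptors encoded by Tnfrsf4, Tnfrsf18 and Tnfrsf1b at rest than naive conventional T cells, and these receptors support the survival and expansion of Treg and the maturation of their precursors in the thymus.

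The array medians lay between 5.70 and 5.77 on the log2 scale, and precision is limited by having 6 arrays. Between arrays, r over all probe sets (genes within a sample, not replicates) was 0.990 to 0.993 between knockout arrays and 0.996 to 0.997 between wild type arrays. Dnmt1 itself had levels of 8.67, 8.89 and 9.34 on knockout arrays 1, 2 and 3, against 9.56, 9.43 and 9.50 on wild type arrays 1, 2 and 3, by its brighter probe set (limma adjusted p = 0.162). Its other probe set had a difference of -0.72 (adjusted p = 0.113). Without knockout replicate 3 both passed (adjusted p = 0.0457 and 0.0294). Whether the probes fall inside the deleted exons is not stated in the sources used here. Of the 8 Treg and T cell markers, 2 were called lower, Il2ra (adjusted p = 0.0444), which encodes the CD25 used for the separation, and Ikzf2 (adjusted p = 0.0400). The call of Il2ra was that of its brighter probe set, with a difference of -0.64. Its dimmer probe set had -0.24 with overlapping groups and did not pass (limma adjusted p = 0.308). Il2ra kept its call only without knockout replicate 1 when arrays were left out in turn, and the adjusted p of Ikzf2 then ran from 0.0414 to 0.151. The other markers were measured in both groups, Ctla4 at 10.07 ± 0.40 in the knockout and 10.50 ± 0.088 in wild type. All 8 Treg and T cell marker genes, Foxp3 among them, had a negative difference, with a median of -0.41. Of 14 measured neutrophil marker genes, 9 were called higher in the knockout and all 14 had a positive difference. Their mean level was 7.91, 9.93 and 8.58 on knockout arrays 1, 2 and 3, against 5.86 to 6.25 on the wild type arrays. Monocyte and macrophage markers averaged 6.14 to 6.97 in the knockout and 5.49 to 6.11 in wild type, CD8 and NK cell markers 7.66 to 8.76 and 7.84 to 8.14, and B cell markers 7.15 to 7.80 and 7.32 to 8.26. Dendritic cell markers averaged 5.63 to 6.02 in the knockout and 5.49 to 5.65 in wild type. Within these lists the NK cell gene Ncr1 was called higher (difference 2.50, limma adjusted p = 0.0223), as was the monocyte gene Cd14 (1.29, adjusted p = 0.0223). Klrd1 (0.67, adjusted p = 0.277), Cd8b1 (-0.61, adjusted p = 0.292) and Gzma (-0.66, adjusted p = 0.293) did not pass. With 1 array left out the adjusted p ran up to 0.106 for Ncr1 and 0.109 for Cd14. The part of other cells in the members' values was not tested. Fits with the neutrophil marker mean as a covariate are given below. They cannot separate that mean from the group, since it was higher on every knockout array than on every wild type array.

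None of the 12 member probe sets passed an adjusted p of 0.05 in limma fitted over all probe sets, where 1.68% of all probe sets passed, 1.19% as higher and 0.486% as lower. At an unadjusted p under 0.05 there were 4, or 33.3%, where 16.6% of all probe sets passed. The means were lower in the knockout for 9 of 12, against 54.8% of all probe sets, and the median difference was -0.27, against -0.019 over all probe sets. Differences are knockout minus wild type and ran from -0.49 to 0.18, with adjusted p from 0.152 to 0.999. In simulated data the same fit called 30.5% of differences of -0.5 and 31.8% of those of 0.5. The absence of calls therefore does not show that these genes were unchanged. The 8 Treg and T cell marker genes all had a negative difference, with a median of -0.41, so a lower level was not particular to the members. In 3 of 12 probe sets every knockout value lay below every wild type value, where 13.6% of all probe sets did so, and in 0 every knockout value lay above, where 9.79% did so and 23.4% had groups apart in either direction. The SD was larger in the knockout than in wild type for 8 of 12, against 60.7% of all probe sets. The members varied more among the knockout arrays, with a median SD of 0.23 in the knockout and 0.071 in wild type, against 0.12 and 0.099 over all probe sets. In bulk samples such as these, fewer cells that express a gene and less of its RNA per cell cannot be told apart.

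**Figure D1:**
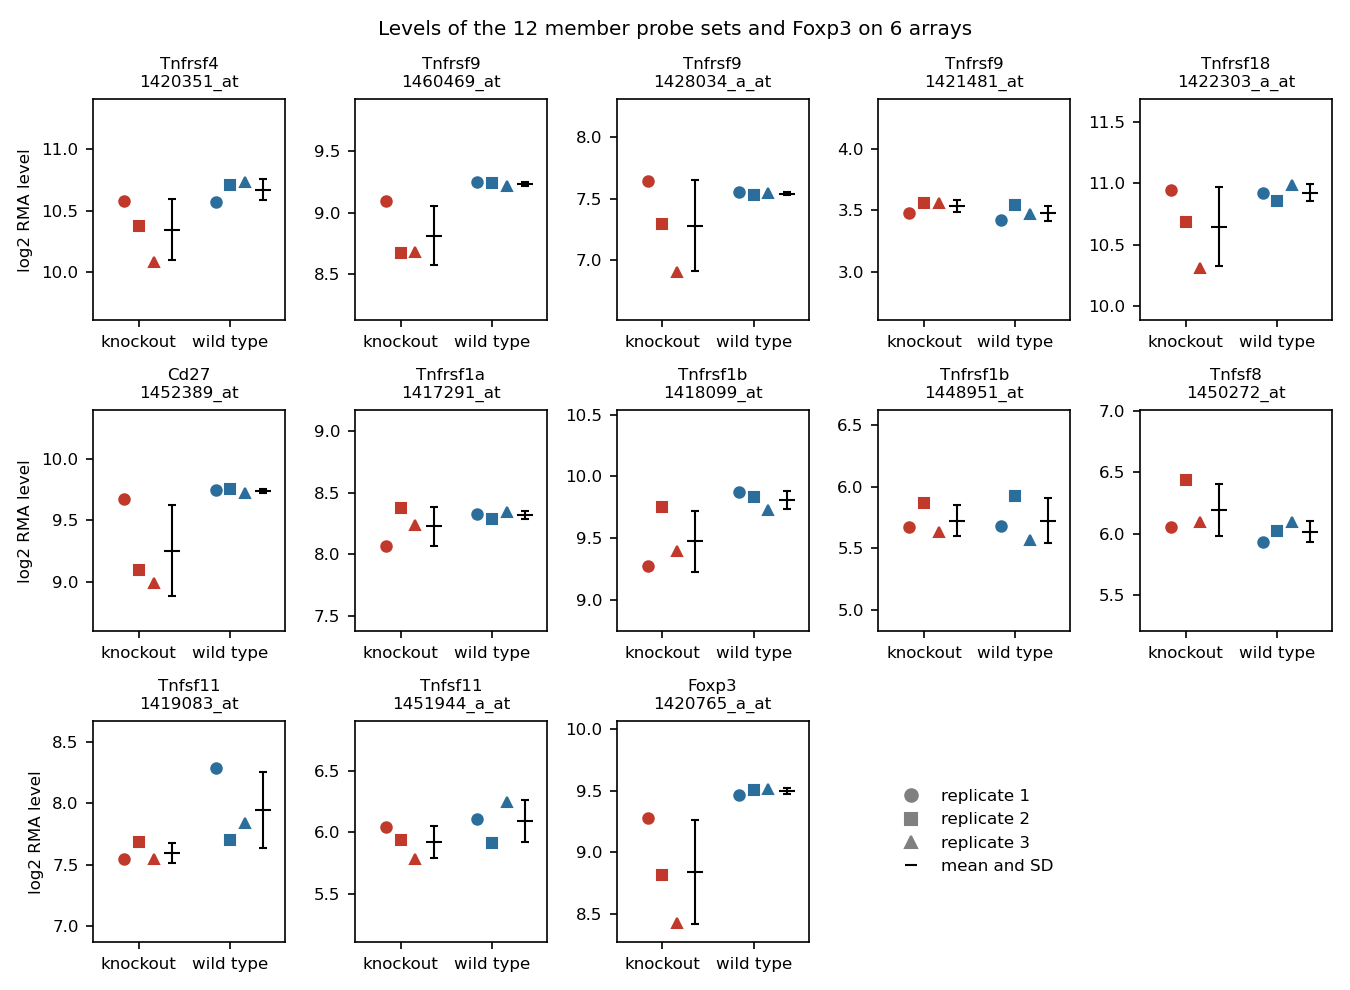
Level (log2 RMA) of each of the 12 member probe sets and of Foxp3 on the 6 arrays, knockout in red and wild type in blue, with the marker shape giving the replicate number and the black bar the mean and SD of 3 arrays. Every panel spans the same height on the log2 scale. The knockout values of Tnfrsf4, Tnfrsf18 and Cd27 spread from the wild type level on array 1 to lower values on arrays 2 and 3.

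Foxp3, the transcription factor that defines the Treg lineage, was read on the same arrays. Its level was 9.28, 8.82 and 8.43 on knockout arrays 1, 2 and 3, against 9.47, 9.51 and 9.51 on wild type arrays 1, 2 and 3. The groups did not overlap, the difference was -0.66 (SE 0.19, 95% interval -1.10 to -0.21), and it did not pass (limma adjusted p = 0.151). Without knockout replicate 1 it was -0.87 (adjusted p = 0.0204), and with the neutrophil marker mean as a covariate -0.25 (SE 0.47). Knockout array 1 was thus closest to wild type in Foxp3 and knockout array 3 farthest from it.

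Tnfrsf4 encodes OX40, a costimulatory receptor induced by activation and carried by Treg. Its level was 10.58, 10.37 and 10.08 on knockout arrays 1, 2 and 3, against 10.57, 10.71 and 10.73 on the wild type arrays. Knockout array 1 lay within the wild type range, and the other two knockout arrays lay below it. The difference was -0.33 (SE 0.13, 95% interval -0.63 to -0.025), a mean level of 79.8% of wild type, and it did not pass (limma adjusted p = 0.267).

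Tnfrsf18 encodes GITR, whose engagement costimulates T cells and which Treg carry constitutively. It had 10.94, 10.69 and 10.31 on knockout arrays 1, 2 and 3, against 10.92, 10.85 and 10.99 on the wild type arrays. As for Tnfrsf4, knockout array 1 stood at the wild type level and array 3 was lowest. The difference was -0.28 (SE 0.15, 95% interval -0.63 to 0.080, limma adjusted p = 0.421). It was -0.42 without knockout replicate 1, -0.11 without knockout replicate 3, and -0.061 (SE 0.39) with the mean of the neutrophil markers as a covariate. For Tnfrsf4 these values were -0.44, -0.20 and -0.18 (SE 0.33). Tnfrsf4 and Tnfrsf18 both lie on chromosome 4, with 0 protein-coding genes starting between them in the RefSeq table of assembly GRCm38.p6.

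Tnfrsf9 encodes CD137, a receptor induced on T cells by antigen. Its brightest probe set, 1460469_at, had 9.09, 8.67 and 8.68 on knockout arrays 1, 2 and 3, against 9.25, 9.24 and 9.22 on the wild type arrays. Here all knockout values lay below all wild type values, and the wild type SD was only 0.016. The difference was -0.42 (SE 0.12, 95% interval -0.71 to -0.14, limma adjusted p = 0.152). The second probe set, 1428034_a_at, had 7.64, 7.30 and 6.90 on the knockout arrays and 7.53 to 7.55 on the wild type arrays, so that knockout array 1 lay above wild type and the others below (difference -0.26, SE 0.17, adjusted p = 0.491). That difference was -0.44 without knockout replicate 1 and -0.073 without knockout replicate 3. Its dimmest probe set, 1421481_at, stayed between 3.42 and 3.56 on all 6 arrays, among the dim values of the table, and had a difference of 0.057 (adjusted p = 0.756). The probe sets of Tnfrsf9 therefore did not give 1 pattern, and only the brightest kept its groups apart.

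Cd27 encodes a costimulatory receptor present on resting T cells, whose ligand is encoded by Cd70. It had the largest negative difference among the members, with 9.67, 9.09 and 8.99 on knockout arrays 1, 2 and 3, against 9.75, 9.75 and 9.72 on the wild type arrays. The groups did not overlap, although knockout array 1 lay only 0.067 below the wild type mean. The difference was -0.49 (SE 0.17, 95% interval -0.88 to -0.096), a mean level of 71.3% of wild type, and it did not pass (limma adjusted p = 0.210). Without knockout replicate 1 the difference was -0.70 for Cd27 (limma adjusted p = 0.0114) and -0.56 for Tnfrsf9 1460469_at (adjusted p = 0.0198), and these were the 2 members called in that fit, both lower, where 1.16% of all probe sets were called lower and 3.34% in either direction. When the neutrophil marker mean entered the fit as a covariate, which itself separates the groups, these differences turned to 0.13 (SE 0.36) and 0.053 (SE 0.25).

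**Figure D2:**
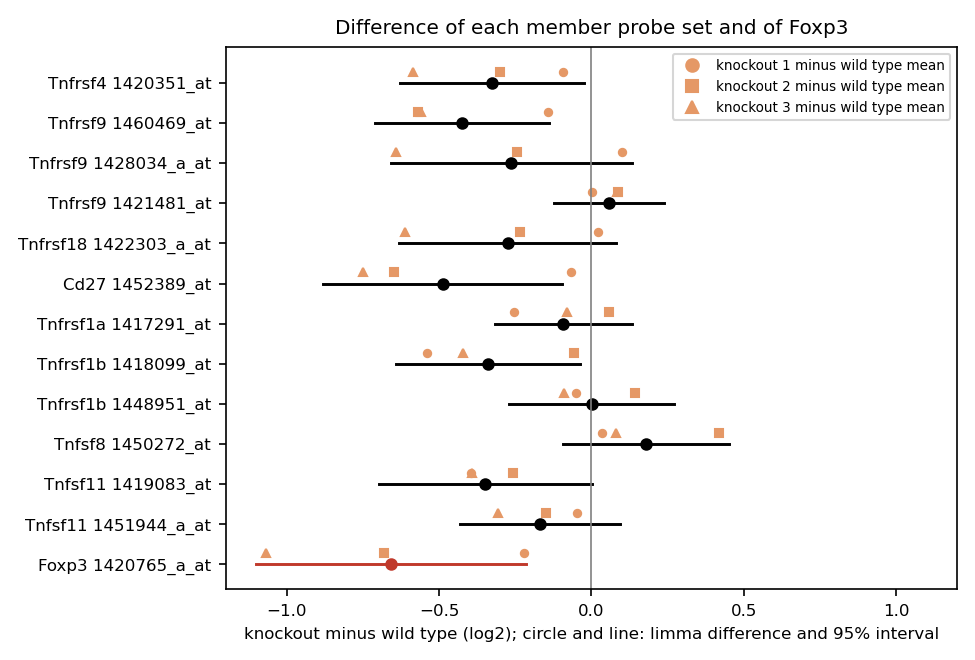
Difference in log2 level, knockout minus wild type, for each member probe set in black and for Foxp3 in red, with the limma 95% interval over 3 arrays a group. The small orange marks above each line give the knockout arrays 1, 2 and 3 against the wild type mean. The intervals of 4 of the 12 members lie entirely below 0 before adjustment, and none passed after it.

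The stretches of genome ahead of these 4 costimulatory receptor genes are shown as background, since Dnmt1 acts on CG dinucleotides. They are the RefSeq sequences (build GRCm38.p6) from the promoter window up to the first annotated base of the gene, 5′ to 3′ on the gene's strand, with each CG in capitals.
Tnfrsf4, chr4:156013445-156013594, plus strand: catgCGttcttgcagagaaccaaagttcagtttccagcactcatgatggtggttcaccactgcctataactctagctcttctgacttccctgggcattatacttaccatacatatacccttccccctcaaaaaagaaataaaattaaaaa
Tnfrsf18, chr4:156026072-156026321, plus strand: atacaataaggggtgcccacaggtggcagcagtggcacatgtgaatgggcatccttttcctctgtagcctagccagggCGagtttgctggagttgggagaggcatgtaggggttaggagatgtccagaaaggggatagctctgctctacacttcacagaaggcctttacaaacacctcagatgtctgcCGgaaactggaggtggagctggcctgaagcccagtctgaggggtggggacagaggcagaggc
Tnfrsf9, chr4:150919905-150920154, plus strand: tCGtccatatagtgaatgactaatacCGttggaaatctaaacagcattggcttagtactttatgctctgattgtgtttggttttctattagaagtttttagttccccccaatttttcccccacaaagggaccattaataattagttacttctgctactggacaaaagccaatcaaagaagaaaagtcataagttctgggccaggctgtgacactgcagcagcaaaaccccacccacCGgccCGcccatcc
Cd27, chr6:125237137-125237277, minus strand: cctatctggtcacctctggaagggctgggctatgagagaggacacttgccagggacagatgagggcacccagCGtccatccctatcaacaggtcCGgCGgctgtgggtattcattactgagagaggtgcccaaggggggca
These stretches hold 1 CG in 150 bases for Tnfrsf4, 2 in 250 for Tnfrsf18, 4 in 250 for Tnfrsf9 and 3 in 141 for Cd27. In the full windows of 300 bases, 250 before and 50 after the window's own start site, the CG counts were 6 for Tnfrsf4, 4 for Tnfrsf18, 7 for Cd27 and 4 and 6 for the 2 windows of Tnfrsf9. For Tnfrsf4 and Cd27 the first annotated base lies ahead of that start site, so these windows hold more than 50 bases of the annotated gene. The windows of Tnfrsf1a and Tnfrsf1b held 11 and 13, and those of Tnfsf8 and Tnfsf11 held 9 and 7. The median over 32851 promoter windows was 7, with quartiles of 3 and 20. On either strand, and counting overlapping matches, GGG and CC with any 5 bases between them, an NF-kB type motif found in 50.8% of all windows, had 3 matches in the Cd27 window, 3 in the second Tnfrsf9 window and 0 in those of Tnfrsf4, Tnfrsf18 and the first of Tnfrsf9. It had 3 in the Tnfrsf1b window, 2 in that of Tnfsf11, 1 in that of Tnfrsf1a and 0 in that of Tnfsf8. TGTTTAC, a forkhead type motif found in 3.65% of windows, had 0 matches in any member window. Of the 8 genes, 5 lie on chromosome 4, 2 on chromosome 6 and 1 on chromosome 14. No methylation was measured here.

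Tnfrsf1b encodes TNFR2, the TNF receptor through which TNF costimulates Treg. By its brighter probe set, 1418099_at, it had 9.27, 9.75 and 9.39 on knockout arrays 1, 2 and 3, against 9.87, 9.83 and 9.73 on the wild type arrays. In contrast to the costimulatory receptors above, apart from the dim Tnfrsf9 1421481_at, knockout array 1 was the lowest and array 2 lay within the wild type range. The difference was -0.34 (SE 0.13, 95% interval -0.64 to -0.037, limma adjusted p = 0.252). The order of the knockout arrays, array 2 above array 3 above array 1, was also that of Tnfrsf1a, Tnfsf8, Tnfsf11 1419083_at and the neutrophil marker mean. The dim costimulatory receptor probe set Tnfrsf9 1421481_at had it too, with 3.48, 3.56 and 3.56 on knockout arrays 1, 2 and 3. The second Tnfrsf1b probe set did not have it. The share of all probe sets in that order was not counted, and its cause was not tested. With the neutrophil marker mean as a covariate the difference of 1418099_at was -1.01 (SE 0.19, adjusted p = 0.203). The second probe set, 1448951_at, had 5.72 ± 0.13 in the knockout and 5.72 ± 0.18 in wild type, with overlapping values.

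Tnfrsf1a encodes TNFR1, the broadly expressed receptor that can signal cell death. It had 8.06, 8.38 and 8.24 on knockout arrays 1, 2 and 3, against 8.33, 8.29 and 8.34 on the wild type arrays. The knockout values lay on both sides of the wild type values. The difference was -0.092 (SE 0.097, limma adjusted p = 0.682), and its 95% interval of -0.32 to 0.13 bounds what these arrays can show. With the neutrophil marker mean as a covariate it was -0.47 (SE 0.19, adjusted p = 0.497).

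Among the ligands, Tnfsf11 encodes RANKL, which activated T cells make and which drives osteoclast formation and lymphoid organ development. Its brighter probe set, 1419083_at, had 7.55, 7.69 and 7.55 on knockout arrays 1, 2 and 3, against 8.29, 7.70 and 7.84 on the wild type arrays. The groups did not overlap, but knockout array 2 and wild type array 2 were nearly equal, and wild type array 1 stood above the rest. The difference was -0.35 (SE 0.15, limma adjusted p = 0.301), and without wild type replicate 1 it was -0.17. The dimmer probe set, 1451944_a_at, had 5.92 ± 0.13 in the knockout and 6.09 ± 0.17 in wild type (adjusted p = 0.508).

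Tnfsf8 encodes the ligand of CD30. It had the largest positive difference among the members, with 6.05, 6.44 and 6.10 on knockout arrays 1, 2 and 3, against 5.93, 6.02 and 6.10 on the wild type arrays. Knockout array 2 stood above the other arrays, and knockout array 3 equalled the highest wild type array. The difference was 0.18 (SE 0.12, 95% interval -0.094 to 0.45, limma adjusted p = 0.498). It was 0.058 without knockout replicate 2, and -0.34 (SE 0.21, adjusted p = 0.654) with the neutrophil marker mean as a covariate.

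The relation to Foxp3 was read array by array. No correlation pooled over the 6 arrays is given, since Foxp3 was lower on every knockout array than on every wild type array and a pooled value would mix in the difference between the groups. A test within the groups is weak with 3 arrays each, and with Foxp3 as a covariate the group difference was called for 0 members. Foxp3 lay 0.22, 0.68 and 1.07 below its wild type mean on knockout arrays 1, 2 and 3. On knockout array 1, Tnfrsf4 deviated from its own wild type mean by -0.094, Tnfrsf18 by 0.021, Tnfrsf9 1460469_at by -0.14 and Cd27 by -0.067. On knockout array 3 these deviations were -0.59, -0.61, -0.56 and -0.75, each smaller in size than that of Foxp3. On knockout array 2 the deviation of Cd27, -0.65, was close to that of Foxp3, -0.68, whereas those of Tnfrsf4 and Tnfrsf18 were -0.30 and -0.23. The order of Foxp3 over the knockout arrays, 1 above 2 above 3, was found in 5 of 12 member probe sets (Tnfrsf4, Tnfrsf18, Cd27, Tnfrsf9 1428034_a_at and Tnfsf11 1451944_a_at) and in 15.8% of all probe sets, or 16.7% of those at or above the median level.

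Subtracting Foxp3 on each array made the spread over the knockout arrays smaller in 5 of 12 member probe sets, against 3.74% of all probe sets. That is possible only where the SD over the knockout arrays exceeds 0.21, which 6 of the 12 members met, and 18% of all probe sets that met it had a smaller spread. The 5 were Tnfrsf4, Tnfrsf18, Cd27 and both brighter probe sets of Tnfrsf9. The reduction was largest for Tnfrsf9 1428034_a_at, to 0.064 after subtraction against 0.37 before. It was 0.12 against 0.32 for Tnfrsf18, 0.14 against 0.37 for Cd27, 0.18 against 0.25 for Tnfrsf4 and 0.241 against 0.242 for Tnfrsf9 1460469_at, practically the same. For Tnfrsf1b 1418099_at it grew, to 0.55 against 0.25. These counts were chosen after the values had been seen and describe 3 arrays. Of the 10 other probe sets of Treg and T cell markers, 4 had the order of Foxp3 (Ctla4, both of Cd4 and 1 of Cd28) and 6 did not (Cd3e, Cd3g, Ikzf2, both of Il2ra and the other of Cd28). The brighter Cd4 probe set had 9.37, 9.05 and 8.92 on knockout arrays 1, 2 and 3, against 9.31 to 9.36 in wild type. Dnmt1 ran the other way, with its lowest level on knockout array 1.

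**Figure D3:**
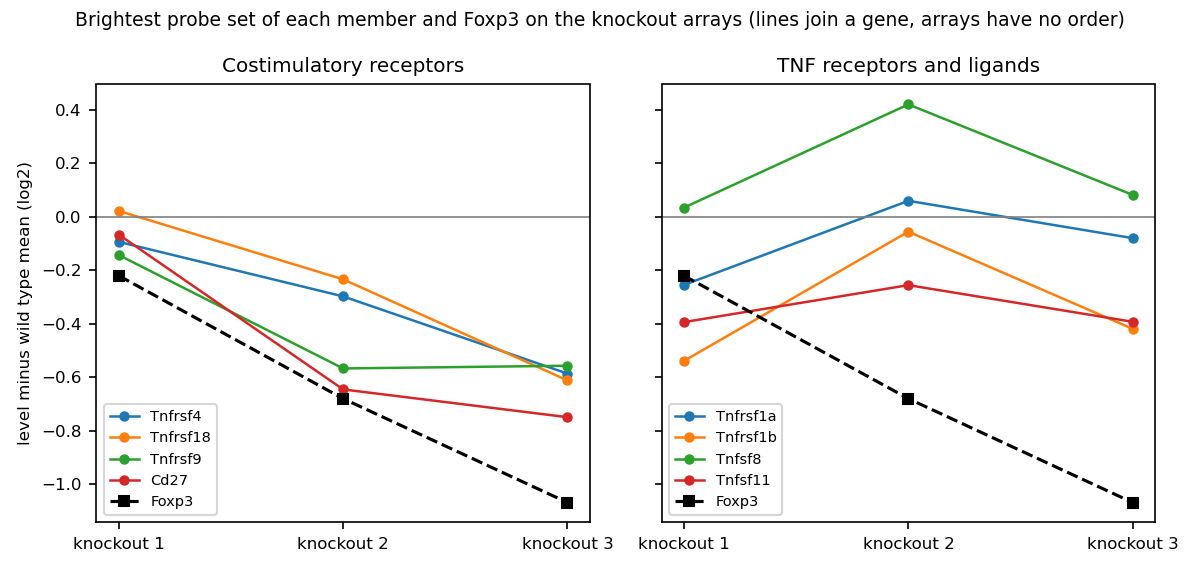
Level on each knockout array minus the wild type mean (log2) for the brightest probe set of each member, with Foxp3 as the dashed black line. Lines join the values of a gene, and the arrays have no order. On the left, the 4 costimulatory receptor genes lie near 0 on knockout array 1 and between -0.75 and -0.56 on knockout array 3. On the right, Tnfrsf1a, Tnfrsf1b, Tnfsf8 and Tnfsf11 have their highest value on knockout array 2.

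The difference between the groups relative to Foxp3 was positive for all 12 member probe sets, so that none lay as far below wild type as Foxp3. Foxp3 itself differed by -0.66 and the median probe set by -0.019, so most probe sets have a positive value. The share over all probe sets was not counted, and the sign is not read as a trait of the members. The difference relative to Foxp3 was smallest for Cd27, 0.17 (95% interval -0.40 to 0.74, limma adjusted p = 0.568), and 0.23 for Tnfrsf9 1460469_at, 0.33 for Tnfrsf4 and 0.38 for Tnfrsf18, none of which passed. The 2 that passed were Tnfsf8, 0.84 (adjusted p = 0.0300), and the dim Tnfrsf9 1421481_at, 0.71 (adjusted p = 0.0443), where 40.2% of all probe sets passed as higher, 0.0884% as lower and 40.3% in either direction. That share is above that of the members, so nothing is read from the count. Without knockout replicate 1 it was 10, and without any other single array 0. The SE was 0.29 for every member, since all probe sets carry the same subtracted Foxp3 values and limma pools their spread. With each probe set's own spread, a choice added after seeing the data, 0 members passed, and 0.0309% of all probe sets did.

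The genes whose pattern over the 6 arrays was nearest to each of the main Treg receptor genes were found among 6824 genes at or above the median level, by the root mean square difference of deviations from the gene's own mean. For Tnfrsf4 these were Tpcn1 (0.026), Tmem223 (0.033) and Abhd10 (0.043). For Tnfrsf18 they were Mri1 (0.034), Use1 (0.039) and another TNF receptor gene, Tnfrsf12a (0.041), by its probe set 1418572_x_at. For Tnfrsf9 they were Abcg3 (0.034), Cox7a2l (0.036) and Smc6 (0.043). Foxp3 stood farther off, at 0.20 from Tnfrsf4, 0.21 from Tnfrsf18 and 0.18 from Tnfrsf9, in places 2345, 2131 and 1394 of the same order.

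Of the other TNF receptor family, 31 probe sets of 19 genes were measured, of which 1 was called higher, 0 lower and 9 had an unadjusted p under 0.05. Over all probe sets, 1.19% were called higher, 0.486% lower and 16.6% had an unadjusted p under 0.05. The 1 called in this list was Tnfrsf14, which encodes the herpesvirus entry mediator HVEM, with 7.21, 7.17 and 7.18 on knockout arrays 1, 2 and 3, against 5.13, 5.13 and 4.96 on the wild type arrays (limma difference 2.11, SE 0.082, adjusted p = 3.89e-05). With each array left out in turn the difference was 2.05 to 2.14. Its SD over the knockout arrays was 0.018, beside 0.25 for Tnfrsf4 and 0.32 for Tnfrsf18. Next by p was Tnfrsf13b, which encodes TACI, at 8.31 ± 0.21 in the knockout and 8.79 ± 0.11 in wild type (adjusted p = 0.116).

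Of 18 probe sets of 12 other ligand genes, 0 passed in limma and 4 had an unadjusted p under 0.05, where 16.6% of all probe sets did. The ligand genes with the lowest p were Fasl, the ligand of the death receptor Fas, at 6.72 ± 0.27 in the knockout and 6.15 ± 0.11 in wild type (adjusted p = 0.104), and Tnfsf10, which encodes TRAIL, at 5.72 ± 0.15 and 5.38 ± 0.12 (adjusted p = 0.180). The ligand of Tnfrsf4, Tnfsf4, had 5.29 ± 0.25 in the knockout and 4.96 ± 0.026 in wild type (adjusted p = 0.259). Cd70 had 3.92 ± 0.19 in the knockout and 4.01 ± 0.13 in wild type, and Tnfsf9, the ligand of Tnfrsf9, 4.88 ± 0.070 and 5.04 ± 0.16, with overlapping groups for both.

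Downstream of the receptors, 0 of 26 probe sets of 14 adaptor and proximal signalling genes passed in limma, with 17 negative differences, 4 at an unadjusted p under 0.05 and a median of -0.037. Traf1, an adaptor that TNF receptors and NF-kB induce, had 8.69, 8.69 and 8.65 on knockout arrays 1, 2 and 3, against 8.95, 8.90 and 8.92 on the wild type arrays (adjusted p = 0.150). Traf5, an adaptor of Cd27 and Tnfrsf4, had 7.90, 7.66 and 7.46 on knockout arrays 1, 2 and 3, against a mean of 8.05 ± 0.047 on the wild type arrays (adjusted p = 0.166), with knockout array 3 lowest. In both, the groups did not overlap. Of 27 probe sets of 14 NF-kB subunit, kinase and inhibitor genes 0 passed, 1 had an unadjusted p under 0.05 and 20 had a negative difference, with a median of -0.053. Beside the counts of both lists, 16.6% of all probe sets had an unadjusted p under 0.05 and 54.8% a negative difference, with a median of -0.019. Rel, the c-Rel subunit needed for Treg development, had 6.14 ± 0.19 in the knockout and 6.45 ± 0.069 in wild type (adjusted p = 0.224), and Ikbkg 1421208_at 5.47 ± 0.13 and 5.28 ± 0.14 (adjusted p = 0.418). The other Ikbkg probe sets differed by -0.13 (1454690_at, the brightest), -0.053 (1450161_at) and 0.026 (1421209_s_at), so they did not share 1 direction.

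**Figure D4:**
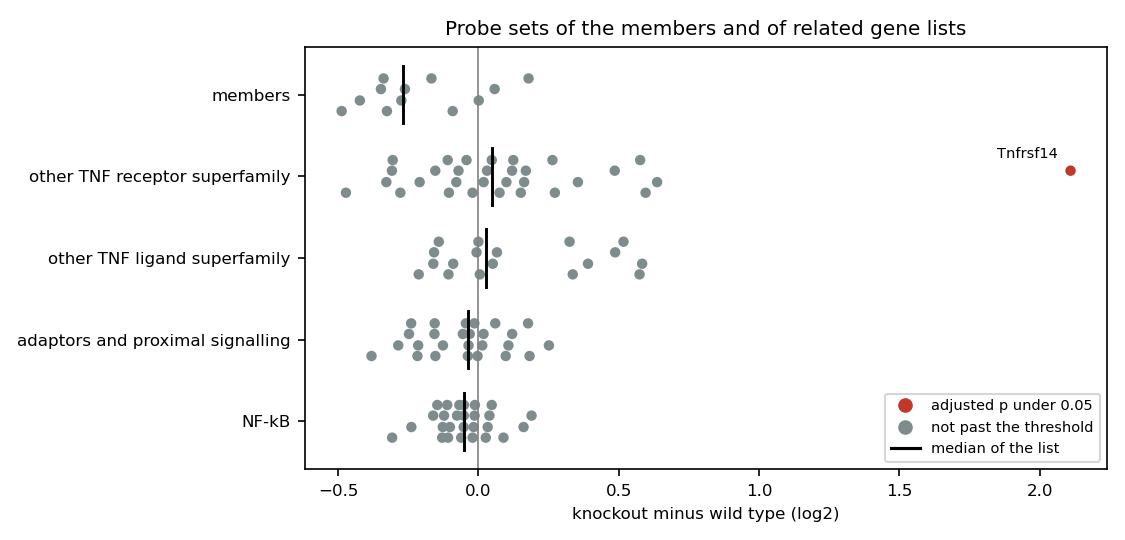
Difference in log2 level, knockout minus wild type, of each probe set of the members and of 4 lists of related genes, with called probe sets in red and the median of each list as a black line. The median was -0.27 for the members, 0.047 for the other receptors, 0.028 for the other ligands, -0.037 for adaptors and -0.053 for the NF-kB genes, and Tnfrsf14 is the 1 called probe set.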

How the data were processed

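Each array has 1 log2 value per probe set as deposited by the authors, and the submitters' processing notes name RMA. No version is stated in the sources used here. RMA normalises between arrays and compresses low levels. Of 22690 probe sets, 64 controls were left out, and 20380 had 1 gene symbol in the platform's annotation, 691 several and 1555 none. Groups came from the sample titles. Knockout and wild type were compared with limma 3.58.1 (lmFit, eBayes) in R 4.3.3 over 22626 probe sets, without a filter, two-sided, with Benjamini-Hochberg adjustment and calls under 0.05. For the relation to Foxp3, its probe set was subtracted on each array before the same fit. Promoter windows were RefSeq's (GRCm38.p6).

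The members and lists were chosen with earlier results of these data known. Named genes were all members, Foxp3, Dnmt1, per related list the called probe sets or the 2 with the lowest p, and the 3 genes nearest in pattern to Tnfrsf4, Tnfrsf9 and Tnfrsf18. Tnfsf4, Cd70, Tnfsf9, Ctla4, Cd4, Il2ra, Ikzf2, Ncr1, Klrd1, Cd14, Cd8b1, Gzma, Cd28, Cd3e and Cd3g were named outside that rule. Marker lists used the brightest probe set per gene. The fit was tested on simulated data with known differences. Alternatives were other scalings, a filter on dim probe sets, 1 probe set per gene, other variance models, array weights, the replicate block, covariates and leaving out each array. Figures used matplotlib 3.10.9 in Python 3.11.15.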

Additional observations from a re-analysis of the deposited data

How the results depend on the processing

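With 3 arrays a group, 1 array could decide a call, as for Cd27, Tnfrsf9 1460469_at, Foxp3 and Dnmt1. RMA compresses dim probe sets such as Tnfrsf9 1421481_at. The count of member probe sets called between the groups was 0 under quantile normalisation, median centring, the filter on the dimmest 40%, the brightest probe set per gene, trend and robust variance, array weights, the neutrophil covariate and the replicate block (0). Same-numbered knockout and wild type arrays had deviations that correlated at -0.076, 0.11 and -0.010, and differently numbered ones at -0.11 to 0.12. No pairing by number was seen, though with 3 arrays a group these values cannot exclude one. The count between the groups was 0 to 2 with 1 array left out, where 29 to 756 of all probe sets were called. The count called relative to Foxp3 was 2, was 0 to 10 with 1 array left out, 1 with the replicate block, 1 with trend and robust variance, 0 with Foxp3 as a covariate and 0 with each probe set's own variance. Without knockout replicate 1 it was 10, and without any other array 0. Tnfrsf1b 1448951_at, near 0 in the fit reported, was -0.030 after quantile normalisation, -0.028 after median centring, -0.0055 with array weights, -0.37 with the neutrophil covariate and -0.078 to 0.10 with 1 array left out. The neutrophil covariate also turned Tnfrsf9 1421481_at (-0.056), 1428034_a_at (0.019) and 1460469_at (0.053), Tnfsf8 (-0.34) and Cd27 (0.13). With Foxp3 as a covariate, Tnfrsf1a (-0.24), Tnfrsf1b 1418099_at (-0.45), Tnfsf11 1419083_at (-0.38), Tnfrsf9 1421481_at (-0.0024) and 1460469_at (-0.096) were negative where subtraction gave positive values. The fits ask different questions, since subtraction takes Foxp3 in full from every probe set and the covariate fit estimates its slope for each.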
